A study of Mus musculus with 12 samples.

Results

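The subject is a set of 8 protease inhibitor genes measured in single spleen cells of lupus-prone SLE.yaa mice and of WT mice. They are Slpi, Wfdc17 and Wfdc21, which encode small secreted proteins with a whey acidic protein (WAP) domain, and the serpins Serpina3f, Serpina3g, Serpinb1a, Serpinb6a and Serpinb9. The genes were chosen by name out of 16094 measured genes, with their difference between SLE.yaa and WT mice already known. Levels and differences between these genotypes are therefore given as a description, without a test. The SLE.yaa group was 2 male mice of strain B6.Sle1yaa, deposited age 14.9, which carry the Sle1 lupus interval and the Yaa translocation of the Y chromosome. The WT group was 2 male C57BL/6 mice, deposited age 14.4, so that genotype and age cannot be told apart. No unit of age is stated. The labels record both groups under a heading that speaks of a chimera, without saying if these animals were any. Spleen cells were enriched on magnetic beads for CD45, which marks leukocytes, and captured in 10x droplets. Each mouse gave 1 expression library and libraries of B cell and T cell receptors.

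Serpins inhibit proteases by offering a loop that is cleaved, after which the serpin changes shape and traps the enzyme. Members of clade A are mostly secreted, whereas members of clade B mostly stay inside the cell and protect it from its own granule proteases. WAP domain inhibitors such as Slpi block neutrophil elastase and related serine proteases directly, and they are abundant in neutrophil granules and in secretions. In mice both families have expanded into gene clusters, so that several of these genes sit beside close relatives.

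On GRCm38.p6, Slpi lies on chromosome 2 at 164354070 to 164356507. Wfdc17 (chromosome 11, 83704056 to 83706269) and Wfdc21 (83746940 to 83752646) are 40670 bases apart. Serpina3f (chromosome 12, 104214544 to 104221129) and Serpina3g (104236147 to 104241939) are 15017 bases apart. The clade B genes are on chromosome 13, Serpinb1a at 32842092 to 32853206, Serpinb9 at 32997061 to 33017955 and Serpinb6a at 33917918 to 34002794. All 8 are annotated as protein-coding. Serpina3f and Serpina3g had the most alike profiles among the 8, described below, and their RefSeq start regions are shown for that reason. Each sequence runs from 250 bases before to 50 after an annotated start on the plus strand, the first of 2 starts for Serpina3f. Capitals mark matches to TTCNNNGAA, the palindromic GAS motif that STAT proteins are known to bind.
Serpina3f, chr12:104214294-104214593: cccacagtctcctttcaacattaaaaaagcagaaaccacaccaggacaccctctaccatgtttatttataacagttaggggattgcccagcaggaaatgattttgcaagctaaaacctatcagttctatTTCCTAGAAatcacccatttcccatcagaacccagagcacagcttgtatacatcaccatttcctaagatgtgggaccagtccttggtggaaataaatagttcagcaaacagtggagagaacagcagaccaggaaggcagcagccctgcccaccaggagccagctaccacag
Serpina3g, chr12:104235897-104236196: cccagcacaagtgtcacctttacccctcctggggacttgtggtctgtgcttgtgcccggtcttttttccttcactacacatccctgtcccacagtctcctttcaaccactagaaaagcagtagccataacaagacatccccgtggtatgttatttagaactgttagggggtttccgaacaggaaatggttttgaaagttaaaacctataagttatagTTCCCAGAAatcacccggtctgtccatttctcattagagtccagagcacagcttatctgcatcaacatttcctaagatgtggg
Both hold 1 such match, at -121 in Serpina3f and at -33 in Serpina3g relative to the start. Where the 2 sequences could be aligned, 169 of 202 bases (83.7%) were identical, with 196 gap positions. From the other Serpina3f start, 153 of 247 aligned bases (61.9%) were identical to the Serpina3g sequence, with 106 gap positions. The motif was found in 8.33% of 32544 start regions of 300 bases. An interferon response motif, 2 copies of GAAA with 2 bases between them on either strand, was found in 3.45% of the same start regions. Neither sequence shown holds it. Of the other members with an entry, Serpinb9 had 1 match to the interferon response motif, at -46. Serpinb6a had such a match at -84 that overlaps a GAS match at -77, and a further GAS match at 20, all at 1 of its 2 annotated starts. Slpi and Wfdc17 had neither motif in this window.

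The table held 22285 cells, with 4961 and 6130 from SLE.yaa 1 and SLE.yaa 2, against 5497 and 5697 from WT 1 and WT 2. The median cell had 4695 and 4050 UMIs in SLE.yaa mice, against 3467 and 3670 UMIs in WT mice. Levels are means over cells of the deposited depth-adjusted values, scaled to a sum of 1000000 per mouse and cell type (vpm). Every ± is an SD over n = 2 mice, and whether the 2 mice of a group were littermates is not stated. Of 22029 barcode sequences, 254 (1.15%) occurred in more than 1 library. Plasma cells (PC) numbered 340 and 287 in SLE.yaa mice, against 12 and 11 in WT mice, so plasma cell values of WT mice rest on few cells. Cell types are those the authors annotated. The markers of the named type led in B, B-ISG, B-early, PC, CD4, CD8, NK and PMN cells. In B-early of SLE.yaa 1 the lead was small, with 14293 vpm of B markers and 13709 vpm of plasma cell markers. Plasma cell markers in B-early were at 1056 vpm in SLE.yaa 2, against 517 and 493 vpm in WT mice. Cells annotated Mac held mainly monocyte markers. Cells annotated DC held mainly macrophage markers in SLE.yaa mice, where 10 macrophage genes summed to 16038 and 11781 vpm, against 935.1 and 2044 vpm in WT mice. The 10 dendritic cell genes summed to 516.3 and 498.0 vpm in DC of SLE.yaa mice, against 1168 and 1451 vpm in WT mice.

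Over all cells, Slpi, Wfdc17, Serpina3f, Serpina3g and Serpinb6a were higher in both SLE.yaa mice than in both WT mice and passed the threshold that 6% of 8544 genes passed in that direction. Both SLE.yaa mice were above both WT mice for 6 of the 8, against 28.9% of all genes, and below for 0 of the 8, against 31.3%. None of the 8 passed it in the lower direction, against 1.85% of all genes. This threshold was an adjusted p of 0.05 in limma on log2(vpm + 10), and no p is read from it here because the genes were picked on this contrast. Just outside the threshold lay Wfdc21, with a log2 difference of 1.23. Serpinb1a (-0.05) and Serpinb9 (0.00) were near no difference. The log2 differences of the 5 genes inside it were 2.86 for Slpi, 2.15 for Wfdc17, 1.76 for Serpina3g, 1.61 for Serpina3f and 1.17 for Serpinb6a. Serpina3f was under 10 vpm in both WT mice. It passed the filter of 10 vpm in 2 mice only through SLE.yaa mice and had to differ. As the heat map of levels shows, the 8 genes were not spread over the same cells.

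**Figure D1:**
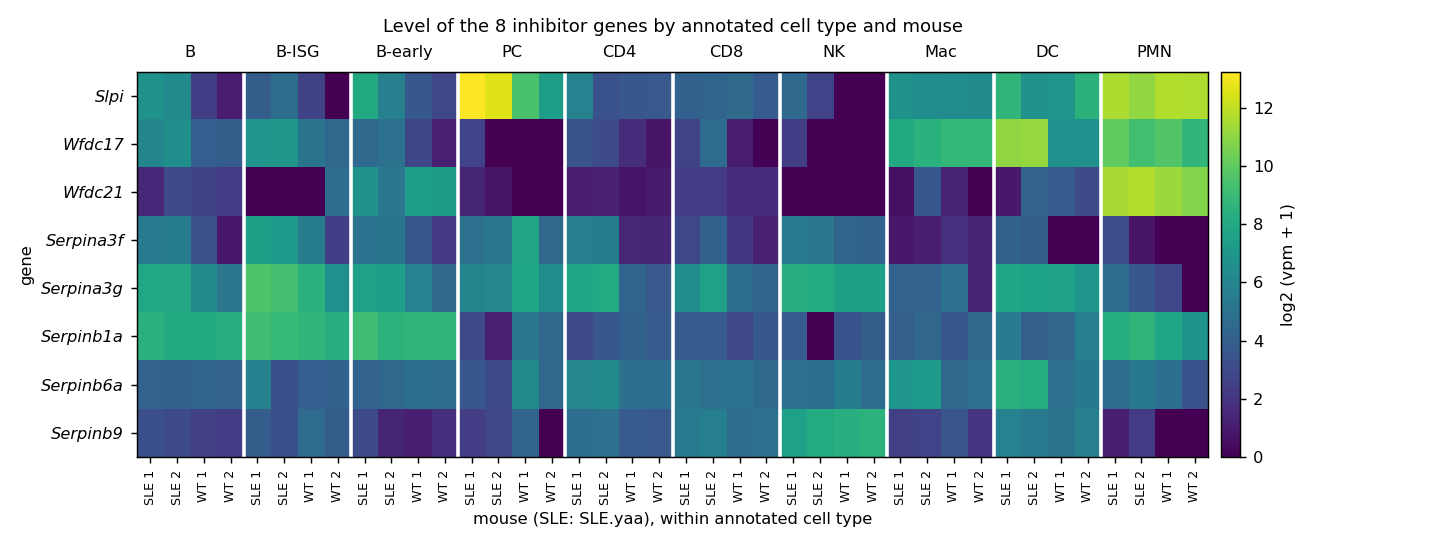
Levels of the 8 genes as log2(vpm + 1), colour scale, in each annotated type with at least 20 cells in the SLE.yaa mice and in each of the 4 mice. Slpi was brightest in plasma cells of SLE.yaa mice and in neutrophils (PMN) of all 4 mice, Wfdc21 in PMN, Wfdc17 in DC of SLE.yaa mice, Serpinb1a in the 3 B cell types and Serpinb9 in NK cells.

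Slpi encodes the secretory leukocyte protease inhibitor, which blocks neutrophil elastase and cathepsin G. In plasma cells it reached 9824 and 6269 vpm in SLE.yaa 1 and 2, against 697.5 and 170.6 vpm in WT 1 and 2. The group means were 8047 ± 2513 vpm in SLE.yaa mice and 434.1 ± 373 vpm in WT mice. In neutrophils, where it is known as an abundant product, it was 3179 and 2221 vpm in SLE.yaa mice, against 3447 and 3266 vpm in WT mice. The plasma cells did not overlap between the genotypes. In neutrophils the log2 difference was -0.10, and after scaling with TMM factors the genotypes overlapped. The cells that held the transcript differed in kind. Plasma cells held 78.3% and 65.5% of the summed Slpi value in SLE.yaa mice, against 1.38% and 0.48% in WT mice. Neutrophils held 11.8% and 24.0% in SLE.yaa mice, against 86.9% and 85.0% in WT mice.

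**Figure D2:**
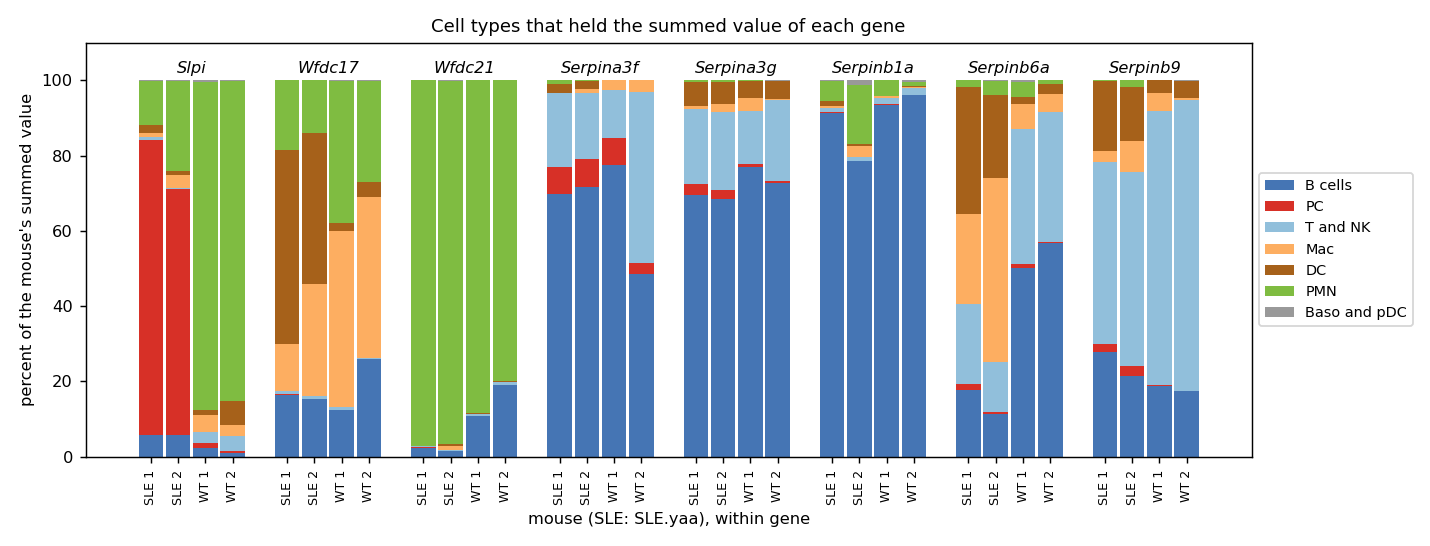
Percent of each mouse's summed depth-adjusted value of a gene, vertical axis, held by cells of each annotated type, stacked for the 4 mice within each gene. In Slpi the plasma cell part is 78.3% and 65.5% in SLE.yaa mice, while the neutrophil part is 86.9% and 85.0% in WT mice.

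Among plasma cells of SLE.yaa mice the level of Slpi went with the heavy chain isotype read in the receptor library. Class-switched plasma cells (IgG or IgA) had 13087 and 7277 vpm in SLE.yaa 1 and 2, against 1963 and 2044 vpm in IgM plasma cells of the same mice. Both mice showed the higher level in switched cells. IgG2c plasma cells had 17334 vpm (123 cells) and 8697 vpm (112 cells), and IgG2b plasma cells had 8761 vpm (57 cells) and 5690 vpm (69 cells). IgG3 plasma cells were much lower, with 2227 vpm (17 cells) and 1361 vpm (31 cells), close to the IgM cells in their means only. Slpi was detected in 17.6% and 32.3% of the IgG3 plasma cells, against 66.7% and 61.2% of the IgM plasma cells. IgA cells varied most between the mice, with 3829 vpm (22 cells) and 15040 vpm (12 cells). IgG1 plasma cells numbered 16 in SLE.yaa 1 and had 20592 vpm. Set side by side within 1 isotype, IgM plasma cells had 1963 vpm (96 cells) and 2044 vpm (49 cells) in SLE.yaa mice, against 236.1 and 190.0 vpm in WT mice (10 cells each). The genotypes did not overlap in that class either. Switched plasma cells numbered 1 in each WT mouse, so the switched classes could not be compared between genotypes.

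**Figure D3:**
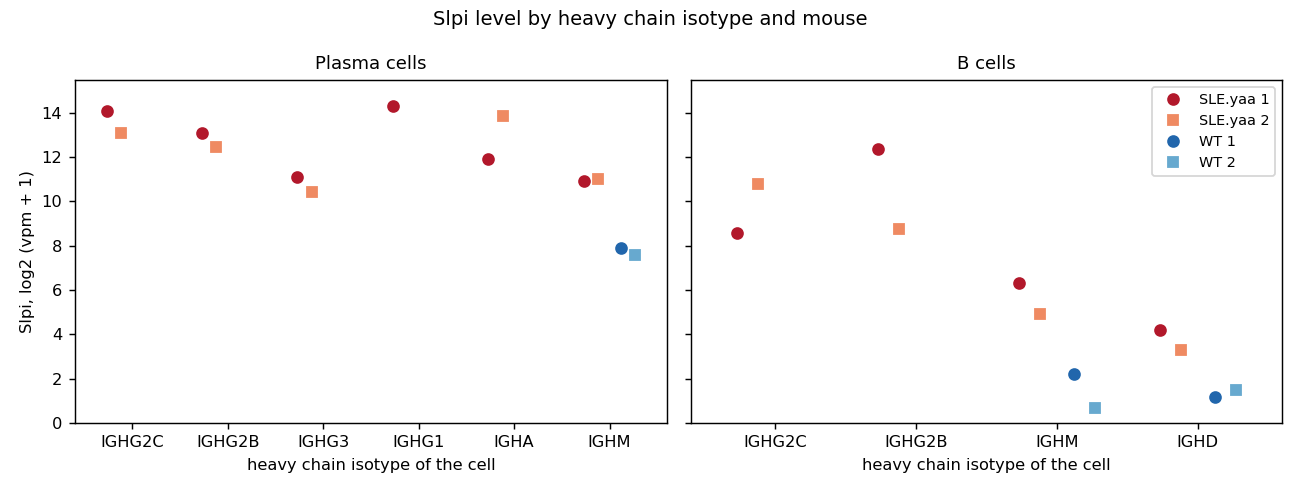
Slpi as log2(vpm + 1), vertical axis, by heavy chain isotype of the cell, 1 point per mouse, in plasma cells (left) and B cells (right), for classes with at least 10 cells. IgG2c and IgG2b plasma cells of SLE.yaa mice lie between 5690 and 17334 vpm, above IgM plasma cells of the same mice at 1963 and 2044 vpm and of WT mice at 236.1 and 190.0 vpm.

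In B cells (B, B-ISG and B-early pooled) Slpi averaged 94.4 ± 29.4 vpm in SLE.yaa mice and 3.1 ± 2.61 vpm in WT mice. The share of type B cells with Slpi detected was 7.99% (6.95 to 9.13) and 4.69% (3.89 to 5.6) in SLE.yaa mice, against 0.831% (0.543 to 1.22) and 0.264% (0.121 to 0.501) in WT mice. Exact Clopper-Pearson 95% intervals, here and below, cover counting error only. CD4 T cells, which are not known for the gene, gave 8.03% (6.04 to 10.4) and 3.45% (2.09 to 5.34) in SLE.yaa mice, against 3.26% (2.14 to 4.74) and 4.44% (3.14 to 6.06) in WT mice. The intervals of B and CD4 cells overlapped in both SLE.yaa mice, and in WT mice the share was lower in B cells than in CD4 cells. No expression in B cells is read from these shares, and the part of free RNA was not tested. Median UMI counts were 4778 and 4518 in B cells of SLE.yaa mice, against 3218 and 3389 in WT mice.

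A small class held more than its share of the value. Of the B cells of SLE.yaa 1 and 2, 51 (1.95%) and 79 (2.92%) had a class-switched heavy chain, and these held 53.5% and 70.6% of the Slpi value of B cells. Switched B cells had 2884 and 1535 vpm, against 59.3 and 21.3 vpm in B cells with IgM or IgD of the same mice. In WT mice, B cells with IgM or IgD had 3.23 and 0.76 vpm, so the genotypes did not overlap outside the switched class either. The contrast of switched with IgM or IgD cells lies within the SLE.yaa mice and was not used to choose the genes. Its log2 difference was 5.43 (SE 0.15), higher in 2 of 2 mice, and it passed in limma with the mouse as block (adjusted p = 8.1e-21 over 8164 genes). With 4 profiles and a block, each gene has 1 residual degree of freedom and the spread is borrowed from all genes. In the same test 5.17% of all genes were higher and 8.54% were lower in switched cells.

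Plasma cell markers moved with this result. At least 4 of 8 plasma cell markers were detected in 27.5% (15.9 to 41.7) and 26.6% (17.3 to 37.7) of switched B cells, against 3.33% and 1.47% of IgM or IgD B cells. Jchain, which joins antibody chains in plasma cells, was at 12883 and 11798 vpm in switched B cells, against 2241 and 453.8 vpm in IgM or IgD cells. When cells with 4 or more of these markers were left out, a choice made after seeing the data, Slpi stood at 33.8 and 146.9 vpm in switched cells, against 20.5 and 12.2 vpm in IgM or IgD cells. The log2 difference was then 1.56 (limma, adjusted p = 0.00392). SLE.yaa 2 carried most of what remained. The part of plasma cells among the cells annotated as B cells was not tested.

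Switched B cells differed in 3 further members. Serpinb1a, a clade B serpin that inhibits neutrophil elastase and cathepsin G, was at 126.3 and 79.1 vpm in switched cells, against 361.8 and 292.6 vpm in IgM or IgD cells. It fell by 1.69 on the log2 scale (limma with mouse block, adjusted p = 1.6e-08), lower in 2 of 2 mice. Wfdc17 was at 19.7 and 14.8 vpm in switched cells, against 68.1 and 95.6 vpm in IgM or IgD cells, and fell by 1.81 (adjusted p = 2.9e-06). Serpina3g was at 169.7 and 192.8 vpm in switched cells, against 238.7 and 271.3 vpm in IgM or IgD cells, and fell by 0.56 (adjusted p = 0.0135). Without the cells with 4 or more plasma cell markers, the falls of Serpinb1a (-1.36) and Wfdc17 (-1.55) still passed, while Serpina3g (-0.35) did not (adjusted p = 0.198). Serpina3f (-0.04) and Serpinb6a (-0.06) did not pass, and Wfdc21 and Serpinb9 were under the filter of 10 vpm in 2 mice and had no test. With no filter on low values Slpi still passed (adjusted p = 0.00178), and the falls of Serpinb1a (0.0506), Wfdc17 (0.127) and Serpina3g (0.132) did not. The fall of Serpina3g also did not pass without the mouse as block (adjusted p = 0.111).

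Serpina3f and Serpina3g encode clade A serpins of the mouse-specific Serpina3 cluster. Serpina3g, also called Spi2A, is known as an inhibitor of cathepsins that protects lymphocytes from lysosomal cell death. Both were higher in SLE.yaa mice in T cells and in each of the B, B-ISG and B-early types. In CD4 T cells Serpina3g was at 224.0 and 271.6 vpm in SLE.yaa 1 and 2, against 18.6 and 12 vpm in WT 1 and 2. Serpina3f was at 49.5 and 48.4 vpm in the CD4 cells of SLE.yaa mice, against 1.7 and 1.6 vpm in WT mice. The groups did not overlap for either gene, and the 2 mice of a group were close. The log2 differences were 3.32 for Serpina3g and 2.32 for Serpina3f.

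In B cells, Serpina3g averaged 254.8 ± 14.7 vpm in SLE.yaa mice and 60.7 ± 31.1 vpm in WT mice. Serpina3f averaged 47.6 ± 0.584 vpm in SLE.yaa mice and 5.42 ± 5.98 vpm in WT mice. The WT mice differed among themselves, with Serpina3g at 79.7 vpm in WT 1 and 37.6 vpm in WT 2 in type B, and Serpina3f at 8.78 and 0.90 vpm. The type with the highest levels of both genes in SLE.yaa mice was B-ISG, the B cells with an interferon signature. There Serpina3g was at 791.0 and 662.8 vpm in SLE.yaa mice, against 349.4 and 101.2 vpm in WT mice. Serpina3f in B-ISG cells was at 181.5 and 139.2 vpm in SLE.yaa mice, against 48.5 and 4.6 vpm in WT mice. B-ISG numbered 47 and 81 cells in SLE.yaa mice, against 59 and 123 cells in WT mice. In WT mice other types reached or passed these levels. NK cells of WT 1 and WT 2 had 184.1 and 176.7 vpm of Serpina3g and 18.2 and 16.5 vpm of Serpina3f, above B-ISG in WT 2, and the few plasma cells had 213.1 and 21.3 vpm of Serpina3f. For Serpina3g, NK cells came next in SLE.yaa mice (326.4 and 270.4 vpm), and their range overlapped that of CD4 cells.

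**Figure D4:**
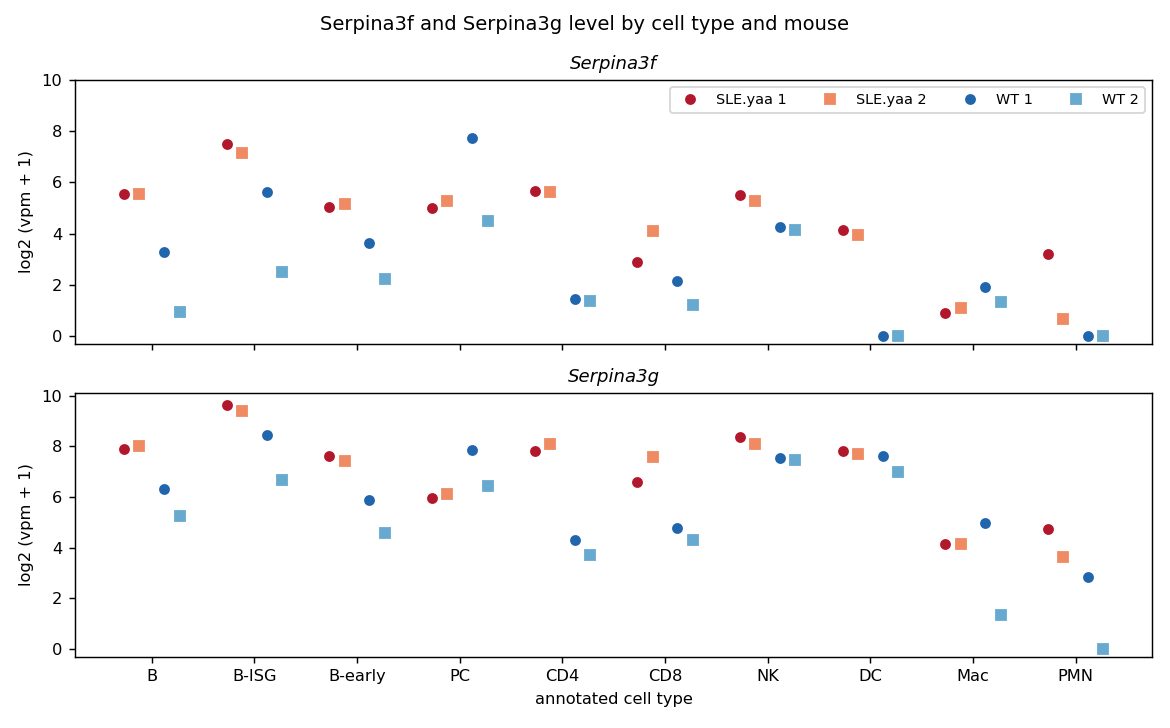
Serpina3f (top) and Serpina3g (bottom) as log2(vpm + 1), vertical axis, in each annotated type, 1 point per mouse. Points of SLE.yaa mice lie above those of WT mice in B, B-ISG, B-early, CD4, CD8 and NK cells for both genes. In plasma cells the 2 points of SLE.yaa mice lie below both points of WT mice for Serpina3g and between them for Serpina3f.

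Splits of the T cells by marker genes showed Serpina3g higher in SLE.yaa mice on both sides. CD4 cells with Foxp3, the regulatory T cell factor, had 359.8 and 367.3 vpm in SLE.yaa mice, against 117.2 and 83.5 vpm in WT mice. CD4 cells without Foxp3 had 185.7 and 246.2 vpm in SLE.yaa mice, against 9.6 and 5.8 vpm in WT mice. In WT mice the transcript was thus low outside Foxp3 cells. Cells with Foxp3 numbered 141 and 115 of 635 and 550 CD4 cells in SLE.yaa mice, against 68 and 67 of 797 and 834 in WT mice. CD8 cells with Ccl5, a chemokine of memory and effector cells, had 159.1 and 211.7 vpm in SLE.yaa mice, against 73.6 and 52.5 vpm in WT mice. CD8 cells without Ccl5 had 21.8 and 27.6 vpm in SLE.yaa mice, against 5.7 and 1.3 vpm in WT mice. Cells with Ccl5 numbered 161 and 301 of 291 and 338 CD8 cells in SLE.yaa mice, against 137 and 193 of 448 and 569 in WT mice. Both the level within each side and the share of Ccl5 cells were higher in SLE.yaa mice.

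Clone size from the T cell receptor libraries gave a contrast that was not used to choose the genes. In CD8 cells of the 2 SLE.yaa mice, cells of clones with 2 or more cells had 321.4 and 273.3 vpm of Serpina3g, against 63.6 and 148.4 vpm in cells of clones seen once. The log2 difference was 1.45 (SE 0.25), higher in 2 of 2 mice, and passed in limma with mouse block (adjusted p = 0.00186 over 8284 genes, of which 0.676% were higher and 0.833% lower). The call was lost with a pseudocount of 1 and without the block. Expanded clones held 34 and 38 cells, against 199 and 126 cells of clones seen once, and WT mice had 3 and 4 expanded CD8 cells and were not used. Serpinb9, the intracellular inhibitor of granzyme B, was at 102.8 and 91.1 vpm in expanded CD8 cells, against 30.3 and 60.4 vpm in the others. Its difference of 0.96 did not pass (adjusted p = 0.154), and the remaining 6 members did not pass.

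In CD4 cells of SLE.yaa 1, SLE.yaa 2 and WT 1, Serpina3g was at 291.3, 390.5 and 23.5 vpm in expanded clones, against 183.8, 232.9 and 15.2 vpm in clones seen once. It was higher in 3 of 3 mice by 0.52 on the log2 scale but did not pass (limma, adjusted p = 0.653). No gene of 8805 passed there (0%), while 654 had an unadjusted p under 0.05. WT 2 had 8 expanded CD4 cells and was not used.

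In type B cells of SLE.yaa mice, and across profiles, the Serpina3 pair went together. Among B cells of SLE.yaa 1 in which Serpina3f was detected, 273 of 343 (79.6%, 74.9 to 83.7) also had Serpina3g, against 46.2% (44.1 to 48.4) of the 2122 others. In SLE.yaa 2 the shares were 294 of 374 (78.6%, 74.1 to 82.7), against 49.8% (47.6 to 52.0) of the 2079 others. The intervals were also apart in CD4 and B-early cells of both SLE.yaa mice. They overlapped in B-ISG cells of SLE.yaa 1 (83.3% against 69.6%) and SLE.yaa 2 (90.9% against 87.5%). In CD8 (55.6% against 37.8%) and NK cells of SLE.yaa 2 they overlapped too. Cells with more UMIs detect more genes, and the part of depth in this was not tested. Over 38 profiles of mouse and type (10 types), the gene most like Serpina3f among 8513 was Serpina3g, with Pearson r of 0.82 on log2(vpm + 10), followed by H2-T22 (0.75) and Socs1 (0.72). The genes most like Serpina3g after Serpina3f were Foxp4 and AU020206 (0.75 each). These profiles share mice and libraries, and reads of near-identical relatives in the Serpina3 cluster may have been divided between the genes in a way not stated.

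In plasma cells the pair ran the other way with isotype. Serpina3g was at 22.8 and 43.0 vpm in class-switched plasma cells of SLE.yaa mice, against 164.3 and 203.3 vpm in IgM plasma cells of the same mice. Serpina3f was at 16.0 and 16.1 vpm in switched plasma cells, against 71.3 and 134.3 vpm in IgM plasma cells. By isotype, Serpina3f in IgG2c, IgG2b and IgG3 plasma cells was below IgM in both mice. IgA plasma cells had 87.2 vpm in SLE.yaa 1 (22 cells), above its IgM cells, and 14.2 vpm in SLE.yaa 2 (12 cells). IgG1 plasma cells of SLE.yaa 1 had 64.1 vpm (16 cells). IgM plasma cells of WT mice had 283.3 and 95.01 vpm of Serpina3g, which spans the values of IgM plasma cells in SLE.yaa mice. With the switched isotypes pooled, Slpi thus was higher, and the Serpina3 pair lower, in switched than in IgM plasma cells in both SLE.yaa mice.

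Wfdc17 encodes a WAP domain protein known from activated mouse macrophages and microglia. Its highest level was in cells annotated DC of SLE.yaa mice, with 2169 and 2281 vpm, against 98.4 and 100.6 vpm in WT mice. The groups were far apart, and the log2 difference of 4.51 was the 9th highest of 8832 genes in DC. The cells behind the label differed, as their markers show. DC cells with at least 3 of 10 macrophage markers numbered 206 and 212 in SLE.yaa mice, against 4 and 9 in WT mice, and had 2713 and 3144 vpm of Wfdc17 in SLE.yaa mice, against 327.5 and 170.5 vpm in WT mice. The other DC cells had 278.8 and 265.5 vpm in SLE.yaa mice, against 86.4 and 92.4 vpm in WT mice. The direction was the same on both sides of the split, with few cells on the macrophage side in WT mice.

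Serpinb6a encodes an intracellular clade B serpin, known as an inhibitor of cathepsin G and of other trypsin-like proteases. In DC it was at 345.1 and 297.9 vpm in SLE.yaa mice, against 29.5 and 39.5 vpm in WT mice. Split in the same way, cells with 3 or more macrophage markers had 433.2 and 407.4 vpm in SLE.yaa mice, against 327.5 and 204.6 vpm in WT mice. The other DC cells had 38.7 and 42.1 vpm in SLE.yaa mice, against 13.8 and 20.1 vpm in WT mice. Within either class the genotypes lay closer together than in DC as a whole. In Mac, Serpinb6a was at 122.9 and 139.7 vpm in SLE.yaa mice, against 20.7 and 30.6 vpm in WT mice.

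**Figure D5:**
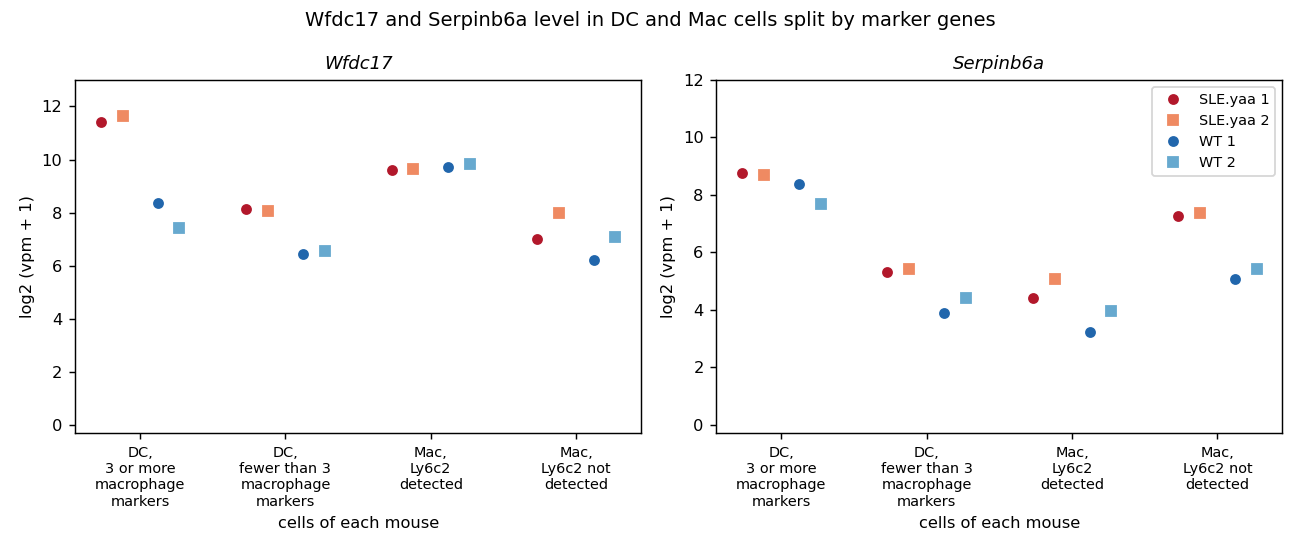
Wfdc17 (left) and Serpinb6a (right) as log2(vpm + 1), vertical axis, in DC cells split by macrophage markers and in Mac cells split by detection of Ly6c2, 1 point per mouse. Wfdc17 lies at 2713 and 3144 vpm in macrophage-marker DC of SLE.yaa mice, and in Mac cells with Ly6c2 the 4 mice lie between 775.5 and 904.3 vpm.

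Cells annotated Mac showed Wfdc17 the other way, with 267.1 and 355.8 vpm in SLE.yaa mice, against 450.0 and 454.2 vpm in WT mice. Detection of Ly6c2, which marks classical monocytes, split these cells. The split also followed depth, and the part of depth was not tested. Median UMI counts with Ly6c2 were 6844 and 6758 in SLE.yaa mice, against 6158 and 6806 in WT mice. Without it they were 3272 and 2942 in SLE.yaa mice, against 3351 and 3338.5 in WT mice. With Ly6c2, Wfdc17 was at 775.5 and 800.1 vpm in SLE.yaa mice, against 838.3 and 904.3 vpm in WT mice. Without Ly6c2 it was at 127.3 and 250.5 vpm in SLE.yaa mice, against 73.5 and 133.6 vpm in WT mice, and the groups overlapped. Cells with Ly6c2 were 99 of 550 and 234 of 1485 Mac cells in SLE.yaa mice, against 169 of 375 and 63 of 169 in WT mice. Serpinb6a had its level mainly in the cells without Ly6c2, with 151.1 and 165.1 vpm in SLE.yaa mice, against 32.7 and 41.9 vpm in WT mice. In cells with Ly6c2 it was at 20.1 and 32.7 vpm in SLE.yaa mice, against 8.4 and 14.7 vpm in WT mice.

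Wfdc17 was also higher in B cells of SLE.yaa mice, at 80.2 ± 18.0 vpm, against 13.8 ± 0.703 vpm in WT mice. It was detected in 18.6% (17.1 to 20.2) and 21.4% (19.8 to 23.1) of type B cells in SLE.yaa mice, against 3.90% (3.25 to 4.64) and 4.06% (3.42 to 4.77) in WT mice. In CD4 cells it was detected in 3.15% (1.93 to 4.82) and 2.55% (1.40 to 4.23) in SLE.yaa mice, against 0.753% (0.277 to 1.63) and 0.240% (0.0291 to 0.864) in WT mice, with median UMI counts of 4292 and 3660 in CD4 cells of SLE.yaa mice, against 4003 and 4407 in WT mice. The share in B cells was above that in CD4 cells of the same mouse in all 4 mice. C1qb, a macrophage gene, stood at 0.0705 and 0.0374 vpm per vpm of Wfdc17 in type B cells of SLE.yaa mice, against 1.97 and 1.58 in DC. Lyz2, a monocyte gene, was at 27.2 and 72.2 vpm in these B cells and at 8564 and 6972 vpm in Mac. The 12 monocyte markers summed to 91.1 and 199.7 vpm in B cells of SLE.yaa mice, against 21.6 and 24.6 vpm in WT mice, and their part was not tested.

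Wfdc21 encodes a small WAP domain protein, and in these spleens it was nearly a neutrophil transcript. Neutrophils held 97.0% and 96.7% of its summed value in SLE.yaa mice, against 88.4% and 79.9% in WT mice. Its level in neutrophils was 2961 and 3460 vpm in SLE.yaa mice, against 2452 and 1812 vpm in WT mice, and the groups did not overlap. The other type with the transcript was B-early, the early B cells, at 107.0 and 37.4 vpm in SLE.yaa mice, against 164.6 and 155.9 vpm in WT mice. In that type both SLE.yaa mice were below both WT mice. B-early cells numbered 100 and 170 in SLE.yaa mice, against 262 and 244 in WT mice. In type B, where it was low, Wfdc21 was at 1.78 and 6.58 vpm in SLE.yaa mice, against 4.98 and 4.01 vpm in WT mice, and the groups overlapped.

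Serpinb1a was a B cell gene at levels that differed little by genotype. B cells had 316.9 ± 53.9 vpm in SLE.yaa mice and 295.6 ± 19.0 vpm in WT mice. Type B held 83.6% and 68.8% of its value in SLE.yaa mice, against 81.4% and 85.0% in WT mice. Plasma cells had 7.0 and 1.2 vpm in SLE.yaa mice, against 38.7 and 21.3 vpm in WT mice. The level was thus low in plasma cells of SLE.yaa mice and, as given above, lower in switched than in IgM or IgD B cells. In neutrophils it was at 292.6 and 404.0 vpm in SLE.yaa mice, against 227.4 and 114.3 vpm in WT mice, without overlap. The genes most like it in profile were the B cell genes Ms4a1 (r = 0.90), Ly6d (0.89) and Bank1 (0.88).

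Serpinb9 was highest in NK cells, which carry the granzymes it is known to block. NK cells had 194.1 and 286.6 vpm in SLE.yaa mice, against 325.0 and 381.6 vpm in WT mice, from 50 and 46 cells, against 119 and 117 cells. In CD8 cells it was at 41.1 and 52.4 vpm in SLE.yaa mice, against 24.8 and 29.7 vpm in WT mice. In CD4 cells it was at 26.7 and 31.4 vpm in SLE.yaa mice, against 12.9 and 12 vpm in WT mice. Both SLE.yaa mice were below both WT mice in NK cells and above them in CD4 and CD8 cells. The 5 measured CD8 T cell markers, which include CD3 genes, summed to 397.0 and 400.2 vpm in NK cells of SLE.yaa mice, against 56.8 and 75.4 vpm in WT mice, and their part was not tested. Within CD8 cells with Ccl5 the level was 54.8 and 58.1 vpm in SLE.yaa mice, against 44.2 and 48.7 vpm in WT mice. The gene most like it in profile was Serpinb6b, a clade B serpin that is no member here (r = 0.94), followed by the NK cell receptor gene Klrk1 (0.93).

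The other members had likenesses in the cells where they were high. Slpi was most like Cib2 (0.90), Gca (0.89) and Trib1 (0.87), Wfdc17 most like Mpeg1 (0.91), Wdfy3 (0.90) and Csf2ra (0.90), and Wfdc21 most like Gadd45a (0.92), Bst1 (0.92) and Stfa2l1 (0.90). Serpinb6a was most like Nr1h3 (0.80), Slc29a1 (0.78) and Ms4a6d (0.78). These are Pearson r over the same 38 profiles. Between members, r over those profiles was highest for the Serpina3 pair (0.82) and lowest for Serpinb1a and Serpinb9 (-0.53).

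Because the spleens differed in their makeup, the shares of cell types and the levels within types were exchanged between the genotypes. Here the mean depth-adjusted value per cell over all cells is compared, with group means of levels and of shares. For Slpi this mean was 9.29-fold higher with levels and shares of SLE.yaa mice than with those of WT mice. With only the shares taken from SLE.yaa mice it was 2.14-fold, and with only the levels taken from SLE.yaa mice it was 2.05-fold. Neither alone came near the joint value. Without plasma cells the values were 2.57-fold jointly, 1.88-fold from shares and 1.83-fold from levels. For Serpina3g the joint value was 4.36-fold, with 1.11-fold from shares alone (0.905-fold without plasma cells) and 5.40-fold from levels alone. Serpina3f gave 8.54-fold jointly, 2.43-fold from shares and 10.4-fold from levels. The value from shares rests on the 12 and 11 plasma cells of WT mice and was 0.779-fold without plasma cells. For both Serpina3 genes the levels within types thus gave more than the makeup did. Wfdc17 gave 5.88-fold jointly, 2.51-fold from shares and 2.92-fold from levels, and Serpinb6a gave 3.29-fold, 1.14-fold and 2.06-fold in the same order. Types here are the annotated labels, so a change of the cells within a label counts as level. The cells under DC and Mac differed between the genotypes, as given above, and for these 2 genes their part was not tested. The shares of Foxp3 cells in CD4 and of Ccl5 cells in CD8 also differed. For the Serpina3 genes their part was not tested.

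By cell type, the count of members past the threshold is given beside the share of all genes that passed, and nothing is read from the counts. In B cells 4 of 7 tested members were higher and 1, Wfdc21, was lower in the pooled B types, against 2.62% and 0.895% of all genes. In CD4 cells 4 of 6 were higher, against 15.9% (12.3% lower). In CD8 cells 1 of 5 was higher, Serpina3g, against 2.5% (0.652% lower). In Mac 1 of 5 was higher, Serpinb6a, against 3.92% (1.77% lower), and in DC 3 of 8 were higher, against 8.36% (3.77% lower). In NK cells none of 5 tested members passed, against 0.0967% higher and 0% lower, and in neutrophils none of 6, against 1.24% and 0.66%. Both SLE.yaa mice lay above both WT mice for 4 members in B cells (19.9% of all genes), 4 in CD4 (32%), 4 in CD8 (22.1%), 2 in NK (15.2%), 2 in Mac (29.3%), 4 in DC (31.6%) and 3 in neutrophils (24.4%). They lay below for 1 member in B cells (23%), 1 in CD4 (31.7%), 0 in CD8 (25.6%), 1 in NK (20.6%), 1 in Mac (22%), 0 in DC (23%) and 0 in neutrophils (20.5%). The remaining members in each comparison were under the filter, which a gene can pass through the group where it is high. In B cells Slpi (4.95 and 1.26 vpm in WT mice) and Serpina3f passed it only through SLE.yaa mice. Wfdc21 (5.39 and 8.04 vpm in SLE.yaa mice) passed it there only through WT mice. Serpina3f in CD4 and DC and Serpina3g in neutrophils also passed it only through SLE.yaa mice. These genes had to differ, and the counts include them.

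Of other inhibitors and of proteases, lists of 36 serpins, 16 WAP genes, 24 further inhibitors and 32 proteases were followed. These lists were drawn up with earlier results of these data known. Their counts and medians are therefore a description. An adjusted p below belongs to a single gene in limma over all genes tested and is no test of a list. The table held 13 of the serpins, 1 of the WAP genes, 17 of the further inhibitors and 31 of the proteases. No WAP gene outside the members was high enough for a test. Of the other serpins, 1 passed in 1 comparison. Serpinb2, known as plasminogen activator inhibitor 2, was at 45.6 and 31.5 vpm in Mac of SLE.yaa mice, against 134.8 and 122.3 vpm in Mac of WT mice. It fell by 1.37 on the log2 scale (limma, adjusted p = 0.00223). The share of Mac cells with Ly6c2 was lower in SLE.yaa mice, as given above, and its part in this fall was not tested.

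In CD4 cells, where 15.9% of all genes were higher and 12.3% lower, 5 of 6 further inhibitors tested rose and 0 fell, with a median log2 difference of 1.51, against -0.01 over all genes. Cst7 (cystatin F), which inhibits cathepsins in lysosomes, was at 261.2 and 255.5 vpm in SLE.yaa mice, against 38.9 and 36.9 vpm in WT mice, and rose by 2.45 (limma, adjusted p = 3.2e-09). Timp2, an inhibitor of metalloproteases, rose by 1.73, the cathepsin inhibitor Cst3 by 1.54, Stfa3 by 1.48 and Cstb by 0.71. Stfa3 was at 0 in both WT mice and passed the filter only through SLE.yaa mice, as did Gzmk and Gzmb among the proteases, so these had to differ. Without such genes the counts were 4 of 5 further inhibitors and 7 of 14 proteases. Of 16 proteases tested in CD4 cells, 9 rose and 0 fell, with a median of 0.67. Casp4, an inflammatory caspase, was at 82.4 and 88.9 vpm in SLE.yaa mice, against 10.8 and 6.63 vpm in WT mice, and rose by 2.33 (limma, adjusted p = 4.4e-08). Gzmk rose by 2.45, Casp1 by 2.02 and the lysosomal cathepsin Ctsb by 1.87. With either SLE.yaa mouse left out, Stfa3, Gzmk and Gzmb were under the filter, and the other 11 genes still passed with any 1 mouse left out. The 10 macrophage markers summed to 70.8 and 78.0 vpm in CD4 cells of SLE.yaa mice, against 9.82 and 3.79 vpm in WT mice, with 0 and 1 of them at 0 in SLE.yaa mice, against 4 and 7 in WT mice. Their part in these changes was not tested.

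In CD8 cells, where 2.5% of all genes were higher and 0.652% lower, 7 of 17 proteases rose and 0 fell, while 0 of 6 further inhibitors passed (limma, with 0 of 2 other serpins). Gzmk was at 250.4 and 383.4 vpm in SLE.yaa mice, against 15.8 and 6.6 vpm in WT mice, and rose by 4.02 (adjusted p = 2.3e-05). Gzmb, the granzyme that Serpinb9 blocks, was at 101.4 and 194.7 vpm in SLE.yaa mice, against 11.3 and 6.1 vpm in WT mice, and rose by 3.10 (adjusted p = 0.000408). Casp1 rose by 1.81 and Casp4 by 1.24. The calls of Casp4, Ctsd and Ctsa were lost without WT 1 or without WT 2, and those of Casp1, Casp4, Ctsd and Ctsa with no filter on low values. Casp4 passed the filter only through SLE.yaa mice. The 10 macrophage markers summed to 14.2 and 63.8 vpm in CD8 cells of SLE.yaa mice, against 3.94 and 2.62 vpm in WT mice, with 2 and 5 of them at 0 in SLE.yaa mice, against 8 and 9 in WT mice. Their part in these changes was not tested.

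Among the proteases in B cells Casp4 rose (0.63), a call that was lost without WT 1 and with no filter on low values. None of the 3 further inhibitors or the 1 other serpin tested in B cells passed. In NK cells none of 3 serpins, 6 further inhibitors and 16 proteases passed in limma. In DC, where 8.36% of all genes were higher and 3.77% lower, 7 of 16 proteases rose and 2 fell, and of 6 further inhibitors Timp2 rose (1.63) and Spint2 fell (-1.45). Ctsl was at 165.2 and 104.8 vpm in DC of SLE.yaa mice, against 6.6 and 10.8 vpm in WT mice, and rose by 3.05 (limma, adjusted p = 0.000382). Ctsd rose by 2.18, Lgmn by 2.02, Ctsc by 1.95 and Ctsb by 1.95, while F10 (-2.33) and Adam8 (-1.76) fell, F10 having passed the filter only through WT mice. Macrophage markers moved with this group, as given above. Among DC cells with fewer than 3 of them, 1 gene of these lists passed in place of 11. Calls over all genes also fell there, to 26 higher and 11 lower of 8566, from 738 and 333 of 8832. So nothing is read from the fall. With no filter on low values the calls of Timp2, Ctsb, Ctsc, F10 and Adam8 were lost. That of Timp2 was also lost without SLE.yaa 1 and with a pseudocount of 1, and F10 was under the filter without WT 1 or without WT 2. In Mac, F10 (0.94), Ctsd (0.66) and Ctsb (0.49) rose, calls that were lost without SLE.yaa 1, without SLE.yaa 2 or with no filter on low values. Ctsb also did not pass without WT 1, and neither Ctsb nor Ctsd passed on the sum alone. In neutrophils Ctsb (1.71) and Csta3 (1.85) rose, Csta3 having passed the filter only through SLE.yaa mice, and neither passed without SLE.yaa 1 or without SLE.yaa 2.

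Over all cells, where 6% of all genes were higher and 1.85% lower, 4 of 7 further inhibitors rose, which were Cst3 (1.38), Stfa2l1 (1.07), Timp2 (0.67) and Cst7 (0.49). Of 20 proteases 8 rose and 2 fell, with a median log2 difference of 0.64, against -0.02 over all genes. Ctsb was at 531.2 and 604.2 vpm in SLE.yaa mice, against 185.5 and 152.8 vpm in WT mice, and rose by 1.75 (limma, adjusted p = 0.00311). Gzmk rose by 1.62, Casp4 by 0.89 and Lgmn by 0.75. Gzma, the granzyme of NK cells, was at 58.5 and 53.3 vpm in SLE.yaa mice, against 284.9 and 210.4 vpm in WT mice, and fell by 1.90 (adjusted p = 0.00263). NK cells were 50 and 46 in SLE.yaa mice, against 119 and 117 in WT mice. Ctsw fell by 0.55. Among these genes, Gzma, Ctsb, Casp4, Lgmn and Stfa2l1 passed with any 1 mouse left out. Gzmk passed the filter only through SLE.yaa mice and was under it without SLE.yaa 1 or without SLE.yaa 2. The others lost the call without WT 1 (Cst7, Ctsz, Ctsw), without WT 2 (Cst7, Timp2, Ctsd, Ctsz, Ctsw, Ctsa) or without SLE.yaa 2 (Cst3, Timp2, Ctsz, Ctsw). With no filter on low values the calls of Cst3, Cst7, Stfa2l1, Timp2, Ctsz and Ctsw were lost.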

How the data were processed

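Expression libraries and receptor libraries of B and T cells came from 4 spleens. Per the submitters' processing notes, the authors used Cell Ranger 5.0.0, Seurat 4.0.0 and GRCm38 (mm10). The deposited expression values are natural logs (ln) of 1 plus a whole number (within 1.64e-11), depth-adjusted by an unstated method, so no count test was run. The authors' cell table gave UMI counts and percent of mitochondrial UMIs. Cell types, isotypes and clones are the authors'. Doublet treatment is not stated, and no caller was run on values that are not counts. Cells numbered 22285, with sums of values per cell from 2663 to 6382. A further 15 rows without a gene name (0.0440% of the values) were left out.

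The values were averaged over cells per mouse and type, scaled to 1000000 (vpm) and, for log2 differences, by TMM factors (edgeR 4.0.16). Genes with 10 vpm in 2 mice were tested with limma 3.58.1 (R 4.3.3, trend, two-sided) on log2(vpm + 10), with Benjamini-Hochberg adjustment over all genes tested and a threshold of 0.05. The script was tested on simulated data. A low gene's log2 difference is understated by the pseudocount. Receptor contrasts had the mouse as block and needed 20 cells per class and mouse. Named genes were the 8 members, up to 5 called genes per list, direction and comparison by size, and the 3 genes most alike, except that some of these are not reported here. The members and lists were chosen with earlier results of these data known. Start regions came from RefSeq (GRCm38.p6) and were aligned globally with Biopython. Alternatives were the pseudocount, the filter, the scaling, each mouse left out, the block, clone size, DC cells by macrophage markers and, added after seeing the data, B cells by plasma cell markers, genes at 10 vpm in a mouse of each group, and cell type shares without plasma cells.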

Additional observations from a re-analysis of the deposited data

Results flagged for a closer look

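Differences from WT mice ran in opposite directions in different cell types for 4 of the genes, with every mouse of a group on its side, among B cells, CD4, CD8, NK, Mac, DC and neutrophils. By type, 15.2% to 32% of all genes lay above in this way and 20.5% to 31.7% lay below. How many of all genes did both was not counted, so nothing is read from the 4. Plasma cells, few in WT mice, had no fit. There Serpina3g was at 61.7 and 69.3 vpm in SLE.yaa mice, against 232.5 and 85.3 vpm in WT mice, the opposite of its direction in B and T cells. The difference between types was not tested. Switched plasma cells were 235 of 340 and 230 of 287 in SLE.yaa mice, against 1 of 12 and 1 of 11 in WT mice. In IgM plasma cells alone Serpina3g was at 164.3 and 203.3 vpm in SLE.yaa mice, against 283.3 and 95.01 vpm in WT mice. The genotypes overlapped in that class, so the opposite direction was not seen within IgM plasma cells. The part of isotype in the pooled difference was not tested. Wfdc17 was higher in SLE.yaa mice in B cells (log2 difference 1.95) and in DC (4.51) and lower in Mac (-0.35). Wfdc21 was lower in B cells (-0.56) and higher in neutrophils (0.83). In type B alone it overlapped between the genotypes, and B-early cells, where it was higher than in type B, were 2.02% and 2.77% of cells in SLE.yaa mice, against 4.77% and 4.28% in WT mice. Serpinb1a was lower in CD4 cells (-0.37) and higher in CD8 cells (0.34) and neutrophils (1.27). Serpinb9 was higher in CD4 (0.77) and CD8 cells (0.68) and lower in NK cells (-0.49).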

How the results depend on the processing

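No paired analysis was possible because the mice are numbered in record order, which links no SLE.yaa mouse to a WT mouse. Of the members, 5 passed the threshold over all cells, 5 in B cells, 4 in CD4, 1 in CD8, 0 in NK, 1 in Mac, 3 in DC and 0 in neutrophils. With 1 mouse left out at a time, these counts were 4 to 6 over all cells, 3 to 4 in B cells, 3 to 5 in CD4, 1 to 2 in CD8, 0 to 0 in NK, 1 to 3 in Mac, 2 to 5 in DC and 0 to 5 in neutrophils. Of the other inhibitors and proteases 14, 2, 14, 7, 0, 4, 11 and 2 passed in the same order, and with 1 mouse left out 9 to 19, 0 to 4, 11 to 14, 4 to 14, 0 to 0, 1 to 5, 11 to 12 and 0 to 7. The lone mouse of a group is then assumed to vary like the other group. A gene that passed the filter only through 1 group was under it without either mouse of that group. Slpi in B cells without SLE.yaa 1 or SLE.yaa 2 is an example. Counts of all genes called moved between these fits as well, so nothing is read from the shifts of the listed genes. The cause of the remaining shifts was not tested. Without a filter on low values, members passed in 2 cases in B cells, 0 in CD8 and 1 in neutrophils. The other genes passed in 0 cases in B cells, 2 in CD8, 1 in Mac and 6 in DC. More genes were tested, and calls over all genes moved too. From 208 higher and 71 lower they went to 89 and 27 in B cells, and from 207 and 54 to 19 and 0 in CD8. In Mac they went from 309 and 140 to 64 and 19, and in DC from 738 and 333 to 265 and 64. In neutrophils they went from 81 and 43 to 93 and 37. With a pseudocount of 1, 1 other gene passed in neutrophils, where 49 of all genes were higher and 19 lower. On the sum alone 1 passed in NK cells, where 12 of all genes were higher and 4 lower. Among DC cells with fewer than 3 macrophage markers 1 member and 1 other gene passed, where 26 of 8566 genes were higher and 11 lower. On the sum alone the median log2 difference of all genes was -0.10 in CD8, -0.11 in NK, -0.12 in Mac and -0.14 in neutrophils.

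Between switched and IgM or IgD B cells 4 members passed, and 1 without the filter. Serpina3f changed sign on the sum alone (0.034) and without cells with plasma cell markers (0.12). Between expanded and single clones, 1 member passed in CD8 cells, and 0 with a pseudocount of 1 and 0 with no replicate block (mouse left out of the fit). In CD4 cells 0 passed, and 0 to 1 with 1 mouse left out. Signs that turned belonged to members that had not passed. In CD4 cells with 1 mouse left out, the log2 differences ran for Slpi from -0.24 (without WT 1) to 0.36, for Serpina3f from -0.048 (without SLE.yaa 1) to 0.58, for Serpinb1a from -0.057 (without WT 1) to 0.68 and for Serpinb9 from -0.022 (without SLE.yaa 1) to 0.12. For clones of 3 or more CD4 cells Slpi was at -0.077. In CD8 cells with a pseudocount of 1 they were Wfdc17 (-0.33), Serpina3f (0.036) and Serpinb1a (-0.050). Clones of 3 or more CD8 cells (12 and 15 cells) were too few for a fit. Contrasts within the 2 SLE.yaa mice have no test with 1 mouse left out. With 2 mice per group the number of mice limits the precision, and plasma cells, DC with macrophage markers and expanded clones of WT mice held few cells.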
